A study of Mus musculus with 10 samples.

Results

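Matrix metalloproteinases cut collagen, elastin and other proteins of the extracellular matrix, and the tissue inhibitors of metalloproteinases (TIMPs) bind their active site and block them. In the lung the balance between the enzymes and their inhibitors is studied for its part in emphysema, the loss of alveolar walls seen in smokers. The enzymes are made as inactive precursors, so that an RNA level is not a level of activity. Described here are 10 genes of this group, the 7 proteases Mmp12, Mmp8, Mmp9, Mmp2, Mmp14, Mmp19 and Mmp3 and the 3 inhibitors Timp1, Timp2 and Timp3. They were found by gene name among the 41174 probes of the arrays, which represent 27670 genes, and 14 probes measured them.

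The lungs came from female mice of BALB/c, an inbred laboratory strain, which were 6 to 8 weeks old on arrival. In a whole-body chamber, 5 mice breathed room air and 5 breathed the smoke of 12 reference cigarettes without filters in each exposure, with 2 exposures of 50 minutes per day, on 5 days per week, for 8 weeks. Each lung was put on 1 Agilent whole mouse genome array with 2 colours. Levels are given as the log2 ratio of red, taken as the lung RNA, over green, taken as a reference. The labels name only Cy3, the green dye, so that the sign of every ratio rests on this reading of the channels, which was made from the genes that follow. The question was which genes the smoke changed in the lung. Sftpc, a surfactant gene of lung epithelium, was brighter in red than in green by 6.39 on the log2 scale, and Ddx3y of the Y chromosome was brighter in green by the value -6.95 of red minus green (means of 10 arrays). For Ddx3y red was well above background on 2 of 10 arrays, so that only the sign of its value can be read. The table of processed values that came with the arrays has its groups exchanged against the scanner files, so that every direction below also rests on the scanner files being assigned to the right mice. That table holds the mean log2 signal of both channels and not the ratio of lung over reference, so its differences are another measure. In that table as labelled, Mmp12 and Mmp19 were lower and Mmp3 higher with smoke. None of the 9 members tested there passed, where 16 of 26701 probes did, and Mmp8 had too few values for a test.

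In the smoke-exposed lungs Mmp12, Mmp8 and Mmp19 were higher and Mmp3 was lower in the fit without a block, and the other 6 members did not pass it. With the replicate number as a block Timp2 and Timp3 were lower as well, which gave 3 members higher and 3 lower, beside 6.78% and 5.41% of all probes. Mmp12 rose 5.04-fold (log2 difference 2.33, SE 0.13, n = 5 mice per group), the largest difference among the members. Its room air signal was dim, and with other processing the fold was up to 37.2, as given below. Each fold is the antilog of a difference between group means of log2 ratios, and the groups were compared with limma at an adjusted p under 0.05. Over the whole array the fit without a block called 7.06% of 41173 probes, 4.35% higher and 2.7% lower, against 3 members higher and 1 lower of 10. Among the 28541 probes well above background in red on at least 5 arrays, 2992 were called. The members were chosen with earlier results of these data known, so their count beside these shares is a description only. Room air and smoke arrays were fully apart in 6.89% of all probes, and in 3 members, with smoke above for Mmp12 and Mmp19 and below for Mmp3. The median difference over all probes was -0.0032. In the green reference alone no member passed, with green differences between -0.08 for Mmp14 and 0.09 for a Timp1 probe (adjusted p = 1.00 for each, limma). The plot of the members by array shows every value.

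**Figure D1:**
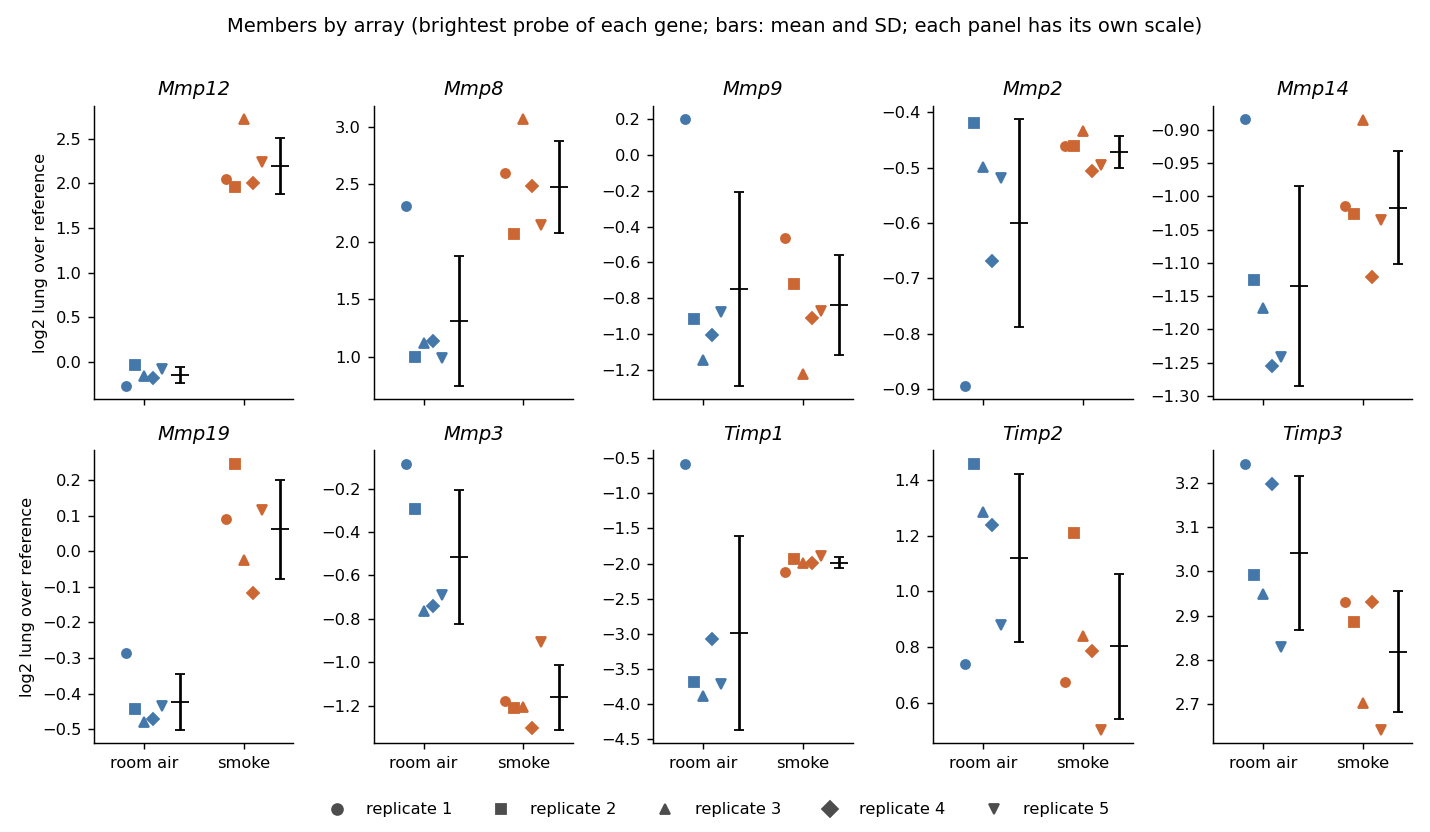
Log2 ratio of lung over reference (y axis) of the 10 members in 5 room air (blue) and 5 smoke-exposed (orange) lungs, with the symbol giving the replicate number and the bar the mean and SD. For Mmp12 the smoke-exposed lungs lie between 1.96 and 2.71, above all room air lungs, and for Timp1 room air replicate 1 lies at -0.58, apart from the other room air lungs at -3.07 and below.

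Mmp12, the macrophage elastase, cleaves elastin. Its probe A_51_P313674 is shown because the largest change among the members rests on it alone. Its 60 bases span 516 bases of genome, at chr9:7352125-7352640 (mm7, the build of the files), so that it crosses an intron.

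Mmp12 probe: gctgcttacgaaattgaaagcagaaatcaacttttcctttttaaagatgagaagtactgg

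With room air, the log2 ratio of Mmp12 was -0.26, -0.03, -0.16, -0.18 and -0.08 in replicates 1 to 5. With smoke it was 2.05, 1.96, 2.71, 2.00 and 2.24. All 5 smoke-exposed lungs lay above all 5 room air lungs, and the gap between the groups was wider than the range within either. In the red signal itself, background subtracted, room air lungs gave 21.8, 13.1, 26.6, 3.53 and 12.1 units and smoke-exposed lungs 379, 225, 621, 447 and 317 units. The room air signal was thus close to the background, and it was well above background on 4 of 5 room air arrays, replicate 4 being the exception, and on 5 of 5 smoke arrays. Among all tested members Mmp12 had the smallest adjusted p, 1.66e-06 with limma (95% interval of the difference 2.05 to 2.61). The green signal of this probe was also close to its local background, with 0 units after subtraction in room air replicates 2 and 4 and smoke replicates 4 and 5 and at most 27.1 units, although the scanner software marked it well above background on 10 of 10 arrays. The size of the fold differed between treatments of these dim signals. Without background correction it was 5.43-fold and with red alone after quantile normalization 6.08-fold. An offset of 10 in place of 50 gave 10.4-fold, the scanner's own ratio 26.9-fold and the red channel alone, scaled to its 75th percentile, 37.2-fold, while the sign and the call were the same.

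Mmp8, the neutrophil collagenase, is stored in neutrophil granules. It stood at 2.31, 0.99, 1.12, 1.14 and 0.99 in the room air lungs and at 2.60, 2.07, 3.07, 2.49 and 2.14 in the smoke-exposed lungs. The groups overlapped, since room air replicate 1 exceeded 2 smoke-exposed lungs while its 4 companions lay below all of them. The difference was 1.16 (SE 0.26), or 2.24-fold, with an adjusted p of 0.021 (limma), and on each of the 5 slides the smoke array was the higher. Without room air replicate 1 the fold was 2.66 (adjusted p = 0.00037), and the call was lost without room air replicate 2, 3 or 5 or smoke replicate 1 (2.12 to 2.19-fold, adjusted p between 0.0523 and 0.0562). The green reference was well above background on 0 of 10 arrays for this probe, and with the scanner's own ratio, at 3.18-fold, it did not pass (adjusted p = 0.0788).

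Mmp9, the gelatinase that neutrophils and macrophages release, gave no called difference with either of its 2 probes. The brighter probe read 0.20, -0.91, -1.14, -1.01 and -0.88 with room air and -0.47, -0.72, -1.23, -0.91 and -0.87 with smoke. Again room air replicate 1 was high, and the other 4 room air lungs lay among the smoke-exposed lungs. The difference was -0.09 (95% interval -0.60 to 0.42) with this probe and 0.06 (-0.32 to 0.44) with the other, which has 10 spots per array. Without room air replicate 1 the values were 0.15 and 0.21, neither of them past the threshold.

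Mmp2, a gelatinase of mesenchymal cells, and Mmp14, a membrane-bound enzyme that activates the Mmp2 precursor, did not pass the test. The Mmp2 difference was 0.13 (95% interval -0.05 to 0.30), and the room air lungs ran from -0.89 in replicate 1 to -0.42, against -0.51 to -0.43 with smoke. Leaving out that lung, it was 0.06. For Mmp14 the differences were 0.12 (-0.04 to 0.28) and 0.11 (-0.07 to 0.28) with its 2 probes. The brighter probe gave 0.18 without room air replicate 1 (adjusted p = 0.0856) and 0.18 with slide 1 left out and the replicate number as a block (adjusted p = 0.0560), an alternative chosen after seeing the data (limma). Changes beyond these intervals are not covered, and a missed threshold does not show equal levels.

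Mmp19, an enzyme that cleaves basement membrane proteins, was higher in all smoke-exposed lungs. It read -0.29, -0.44, -0.48, -0.47 and -0.44 with room air and 0.09, 0.25, -0.03, -0.12 and 0.12 with smoke. The groups did not overlap, and the smoke-exposed lungs were spread more widely than 4 of the room air lungs. The rise was 1.40-fold (difference 0.49, SE 0.07, adjusted p = 0.00153 with limma), and within slides it ran from 0.35 to 0.69. Without background correction the difference was 0.47, with the scanner's own ratio 0.74 and with red alone, scaled to its 75th percentile, 0.83. The call was kept in each.

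Mmp3, stromelysin 1, cleaves matrix proteins and activates other precursors of the family. In the fit without a block it was the only member past the threshold on the lower side. The room air lungs read -0.09, -0.29, -0.76, -0.74 and -0.69, and the smoke-exposed lungs -1.18, -1.21, -1.20, -1.30 and -0.91. All smoke-exposed lungs were below all room air lungs, and room air replicates 1 and 2 were the highest. Mmp3 fell by 0.65 on the log2 scale (SE 0.13, adjusted p = 0.013 with limma), and the within-slide differences were -1.09, -0.92, -0.44, -0.56 and -0.22. With red alone the call was lost at differences of -0.60 after quantile normalization (adjusted p = 0.0758) and -0.65 after scaling to the 75th percentile (adjusted p = 0.0776).

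**Figure D2:**
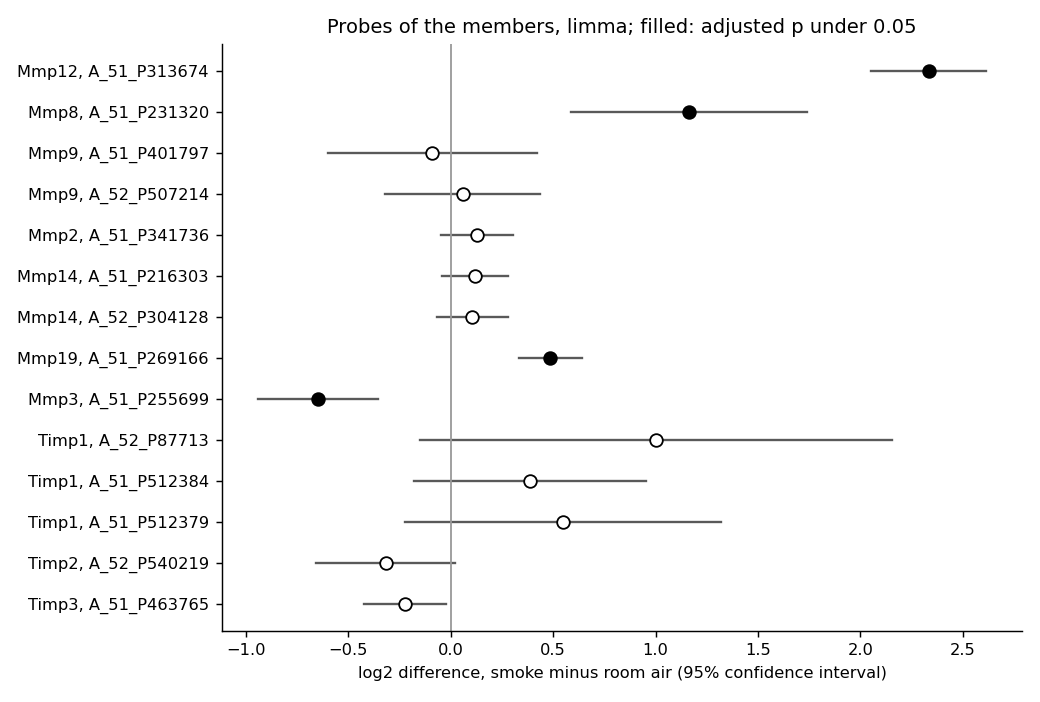
Log2 difference of smoke minus room air (x axis) for the 14 probes of the members, with 95% confidence intervals from limma, filled where the adjusted p was under 0.05. The intervals of Mmp12, Mmp8 and Mmp19 lie above 0 and that of Mmp3 from -0.94 to -0.35, and the widest is that of the brightest Timp1 probe, from -0.15 to 2.15.

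Timp1, an inhibitor induced by cytokines in many cells, was a member whose result turned on 1 lung. A probe of it that crosses an intron, A_51_P512379 at chrX:19305989-19306238 (mm7), is shown because it gave the same picture as the brightest probe.

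Timp1 probe: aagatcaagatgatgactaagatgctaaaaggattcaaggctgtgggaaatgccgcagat

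With room air the brightest Timp1 probe read -0.58, -3.69, -3.89, -3.07 and -3.71, and with smoke -2.11, -1.94, -1.998, -1.99 and -1.89. Room air replicate 1 was above every smoke-exposed lung, and the other 4 room air lungs were below every smoke-exposed lung. The smoke-exposed lungs lay close together, with an SD of 0.08 against 1.38 with room air. Over all lungs the difference was 1.00 (SE 0.52) and did not pass, with an adjusted p of 0.367 (limma). Without room air replicate 1 it was 1.60 (SE 0.14), or 3.04-fold, with an adjusted p of 3.04e-05, and the other 2 probes then gave 1.60-fold and 1.92-fold, both past the threshold. On slides 2 to 5 the smoke array was higher by 1.76, 1.89, 1.08 and 1.82, and on slide 1 the value was -1.54.

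Timp2 and Timp3, inhibitors that many lung cells make, with Timp3 bound to the matrix, were lower on every slide but did not pass the fit without a block. Timp2 read 0.74, 1.46, 1.29, 1.24 and 0.88 with room air and 0.68, 1.21, 0.84, 0.78 and 0.50 with smoke, and the groups overlapped widely. For Timp3 the room air lungs ran from 2.83 to 3.24 and the smoke-exposed lungs from 2.64 to 2.93. The differences were -0.32 (SE 0.15, adjusted p = 0.319) and -0.22 (SE 0.09, adjusted p = 0.208) with limma. Each slide held the smoke and the room air array of the same replicate number, and with that pairing as a block the adjusted p was 0.0174 for Timp2 and 0.0185 for Timp3, against a call rate of 12.2% over all probes. With ratios scaled between arrays and no block, Timp3 was -0.08 (adjusted p = 0.816). The within-slide differences were -0.06, -0.25, -0.45, -0.45 and -0.38 for Timp2, and -0.31, -0.11, -0.25, -0.26 and -0.19 for Timp3.

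**Figure D3:**
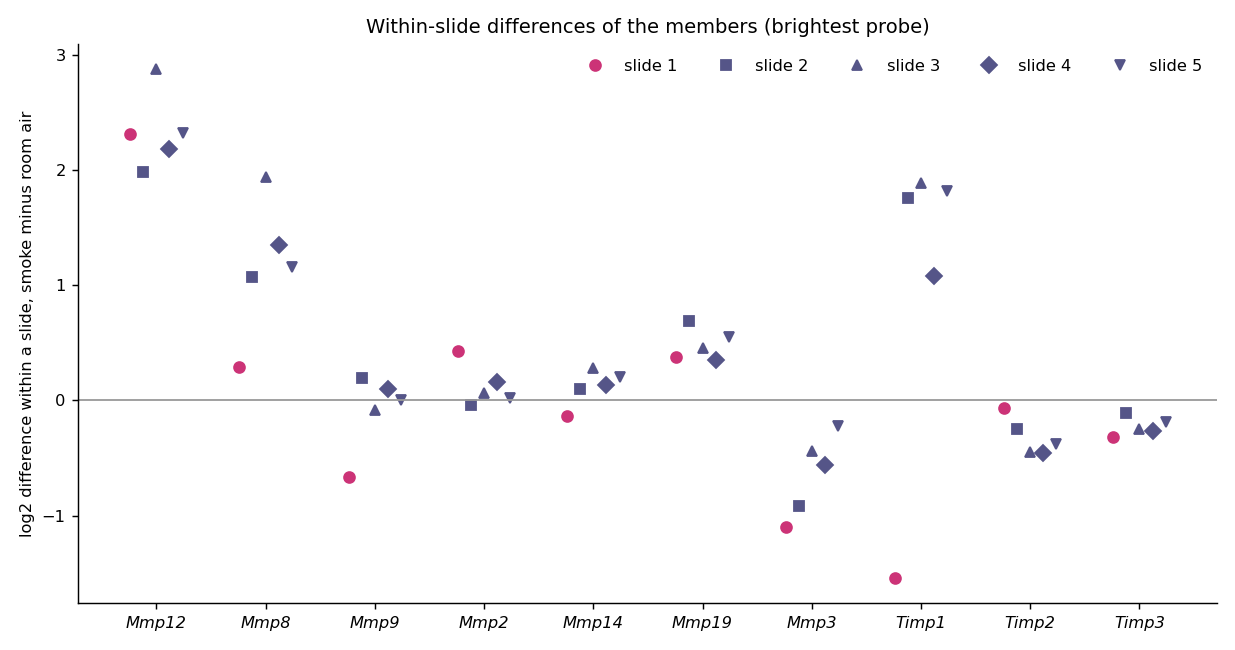
Log2 difference of smoke minus room air within each of the 5 slides (y axis) for the 10 members, slide 1 in pink. Mmp12, Mmp8 and Mmp19 are above 0 and Mmp3, Timp2 and Timp3 below 0 on all 5 slides, while for Timp1 slide 1 lies at -1.54 and the others between 1.08 and 1.89.

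The starts of 7 of the 10 members were found among the promoter sequences of RefSeq (GRCm38.p6), which gave 8 windows since Mmp12 has 2 starts; Mmp9, Mmp2 and Mmp19 were not matched. The 250 bases before each start were searched on both strands for TGANTCA, the recognition letters of AP-1 (pairs of Fos and Jun proteins), for TATAAA, and for AGGAAG, letters of Ets factors. These occurred in 6.75%, 12.4% and 29.5% of 32851 such windows of mouse genes. Windows of Mmp12, Mmp3 and Timp1 are shown, since Mmp12 and Mmp3 moved in opposite directions and Timp1 turned on 1 lung, with TGANTCA in capitals.
Mmp12, chr9:7347124-7347373, + strand: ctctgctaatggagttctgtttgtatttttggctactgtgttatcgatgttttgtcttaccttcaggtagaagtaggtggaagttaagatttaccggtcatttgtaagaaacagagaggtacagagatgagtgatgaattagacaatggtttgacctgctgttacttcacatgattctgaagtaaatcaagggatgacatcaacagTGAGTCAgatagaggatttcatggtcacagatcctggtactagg
Mmp3, chr9:7445572-7445821, + strand: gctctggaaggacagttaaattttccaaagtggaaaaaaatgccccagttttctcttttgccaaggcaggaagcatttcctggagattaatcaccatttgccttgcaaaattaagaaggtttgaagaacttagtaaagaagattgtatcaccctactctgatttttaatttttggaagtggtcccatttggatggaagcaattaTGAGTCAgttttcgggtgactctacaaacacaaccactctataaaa
Timp1, chrX:20869916-20870165, + strand: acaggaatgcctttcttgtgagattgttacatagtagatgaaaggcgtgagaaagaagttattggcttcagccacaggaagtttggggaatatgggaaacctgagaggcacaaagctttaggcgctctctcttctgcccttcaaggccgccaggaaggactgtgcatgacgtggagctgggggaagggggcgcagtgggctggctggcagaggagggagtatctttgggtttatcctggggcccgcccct
TGAGTCA began 44 bases before the start of Mmp12 shown and 46 bases before that of Mmp3, and neither the other Mmp12 window nor the windows of Mmp8, Mmp14, Timp1, Timp2 and Timp3 held the AP-1 letters. The Ets letters were in the windows of Mmp3, Mmp8, Mmp14, Timp1 and Timp3 and in the other Mmp12 window, and the TATA letters in that of Mmp3 alone. A match is a stretch of letters, and binding was not measured.

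Counts over the lists of other genes are read beside those of all probes. Without room air replicate 1 the test called 5.37% of all probes higher and 3.52% lower, and with the replicate block 6.78% higher and 5.41% lower. Of 35 list genes called, 23 were called with each of the 10 arrays left out in turn. The other 12, Mmp23, Mmp28, Plaur, Atf3, Fbn2, Fbln1, Ltbp4, Col4a1, Col5a1, Fcgr1, Tcf21 and Pecam1, each lost the call in at least 5 of these 10 fits, with a highest adjusted p between 0.0690 and 0.122.

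The next list holds genes of AP-1, of Ets factors and of cytokines that induce metalloproteinases. Of 14 measured, 1 was higher, Atf3 (difference 0.52, adjusted p = 0.0352), and 2 were lower, Jun (-0.52, adjusted p = 0.002) and Ets2 (-0.36, adjusted p = 0.00512), all with limma, and the median difference was -0.10. Tnf and Il1b, 2 such cytokines chosen after their values were seen, gave differences of 0.19 and 0.01 over all lungs. Room air replicate 1 read 1.92 for Tnf, with the other room air lungs between -1.30 and -0.80, and 5.96 for Il1b, with the others between 2.41 and 2.85. With the block 1 was higher and 3 lower. Without that lung 5 of the 14 genes were higher and 2 lower, Tnf by 0.77 (adjusted p = 0.00155) and Il1b by 0.67 (adjusted p = 0.00728) being among the higher, and the median was 0.07, with its sign turned.

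Of 14 other metalloproteinases measured (2 of a list of 16 had no probe), 2 were higher and 1 lower, beside 4.35% and 2.7% of all probes, and the block gave the same counts. Mmp13, a collagenase, rose by 0.65 (SE 0.12, adjusted p = 0.00512) with no overlap between the groups, and Mmp23 rose by 0.25 (adjusted p = 0.0289). Mmp28, an enzyme of epithelia, was lower by the value -0.32 (adjusted p = 0.033). Leaving out room air replicate 1 gave 3 higher and 2 lower, Mmp25 and Mmp11 being added. The median of the 14 was 0.01, and Mmp20 and Mmp21 were not well above background in red on any array. Reck, a membrane-anchored inhibitor of metalloproteinases, fell by 0.46 (SE 0.07, adjusted p = 0.0029, limma), with 1.89 to 2.07 in the smoke-exposed lungs and 2.27 to 2.65 with room air, whereas Timp4 gave -0.04 (adjusted p = 0.952).

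The plasminogen system, whose proteases can activate metalloproteinase precursors, gave 1 call among 10 genes, where 7.06% of all probes were called, and with the block 2. Plaur, the receptor that holds urokinase on the cell surface, rose by 0.31 (adjusted p = 0.0275, limma). Among 19 genes of the ADAM and ADAMTS families, relatives of the metalloproteinases, Adam8 rose by 1.82 (SE 0.19, adjusted p = 0.000172), 3.54-fold, and Adamts5 and Adamts9 fell by 0.73 and 0.66, and with the block 4 were lower. Adam8 read -0.79 in room air replicate 1 and between -1.91 and -1.67 in the other room air lungs, below the -0.01 to 0.33 of the smoke-exposed lungs.

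The matrix genes named here, like Adamts5 and Adamts9, were chosen after their values were seen. Of 20 elastic fibre genes, 1 was called higher and 3 lower, with a median of -0.10: Lox, which crosslinks elastin and collagen, rose by 0.70 (adjusted p = 0.00605), and Ltbp4, Fbn2 and Fbln1 were lower. With the block 2 were higher and 6 lower, and without room air replicate 1 the counts were 1 and 6. Eln, the gene of elastin, gave -0.05 (adjusted p = 0.944). Of 20 measured collagen and basement membrane genes 0 were higher and 2 lower, Col4a1 (-0.19, adjusted p = 0.043) and Col5a1 (-0.26, adjusted p = 0.0408), with a median of -0.09, and Col1a1 and Col3a1 did not pass (limma). With the block, and likewise without room air replicate 1, 0 were higher and 6 lower, and without that lung the median was -0.15.

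Macrophage markers were higher with smoke beside Mmp12. Of 15 markers 10 passed on the higher side and 0 on the lower, with a median difference of 0.78. Cd68, a lysosomal protein of macrophages, rose by 2.06 (SE 0.06, adjusted p = 6.92e-09, limma), Itgax by 1.34, Adgre1 by 1.39 and Marco by 2.60. Chil3 rose by 2.12, Msr1 by 2.10, Mrc1 by 1.14, C1qa by 0.78, Csf1r by 0.58 and Fcgr1 by 0.51, while Lyz2, Siglecf, Fabp4, Ear1 and Mertk did not pass. With the block the 10 were joined on the lower side by Mertk (-0.22, adjusted p = 0.0351). The mean log2 ratio of the 15 was 2.42, 2.17, 2.25, 2.11 and 2.11 with room air and 3.18, 3.20, 3.30, 3.09 and 3.15 with smoke, so the groups did not overlap. More macrophages and more Mmp12 RNA per macrophage cannot be told apart in whole lung, and the part of macrophage numbers in the Mmp12 result was not tested.

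Among neutrophil markers, room air replicate 1 stood apart. Leaving out Mmp8 and Mmp9, which stand in the same list, 2 of 11 measured markers were called higher, Camp by 0.60 (adjusted p = 0.00881) and Lcn2 by 2.63 (adjusted p = 0.0158, limma), 0 lower, and the median difference was 0.16. The other 9, S100a8, S100a9, Csf3r, Cxcr2, Retnlg, Ngp, Ltf, Elane and Mpo, did not pass. Retnlg (-0.43) and Ngp (-0.06) were on the lower side. Their mean was 2.91, 1.67, 1.76, 1.45 and 1.69 with room air and 2.52, 2.34, 2.44, 2.05 and 2.24 with smoke. Room air replicate 1 was the highest of all 10 lungs, and the other 4 room air lungs were below every smoke-exposed lung. With the block 3 of the 11 were higher. Leaving out room air replicate 1, 4 of the 11 were called higher, beside 5.37% of all probes, and the median was 0.50. S100a8 and Ltf were the added calls, and Lcn2 had the largest difference, 3.28. That is the lung that stood high in Mmp8, Mmp9 and Timp1, and the part of neutrophils in those values was not tested. Elane was not well above background on any array and Ngp on 1.

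Markers of other cell types were also counted. Of 10 fibroblast markers 3 were lower, Pdgfra (-0.49, adjusted p = 5.95e-05, limma), Dcn (-0.49) and Tcf21 (-0.35), with a median of -0.32. Of 8 endothelial markers Pecam1 alone passed (-0.41, adjusted p = 0.0488, limma), with a median of -0.11. None of 8 epithelial markers passed in limma, and their median was -0.01. Of 6 measured monocyte markers Fcgr4 alone passed, on the higher side (0.56, adjusted p = 0.00804, limma). Only 2 of these 6 differences were above 0, and their median was -0.15, or -0.02 without room air replicate 1. Of 4 red cell markers Slc4a1 alone passed, also higher (1.29, adjusted p = 0.0144, limma), with a median of 0.18. With the block 4 fibroblast and 2 endothelial markers were lower, and without room air replicate 1, 2 fibroblast markers were lower and 2 monocyte markers higher.

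**Figure D4:**
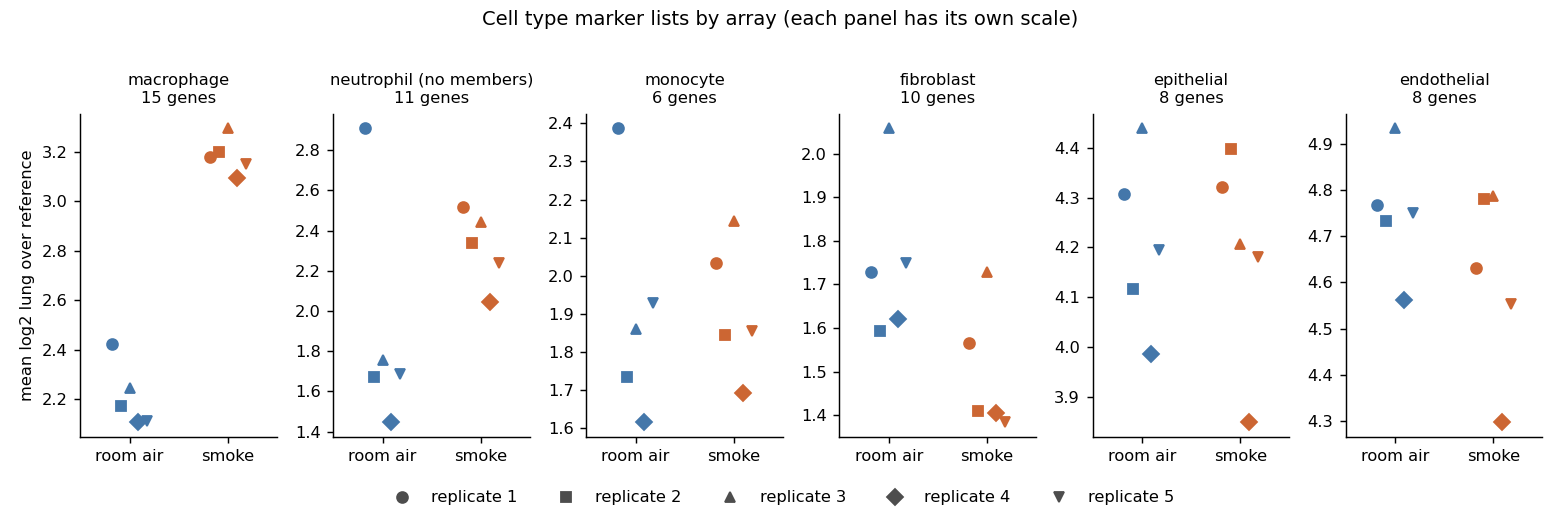
Mean log2 ratio of lung over reference (y axis) of 6 marker lists in each room air (blue) and smoke-exposed (orange) lung, Mmp8 and Mmp9 left out of the neutrophil list. The macrophage list lies at 3.09 and above with smoke and at 2.42 and below with room air, and room air replicate 1 has the highest neutrophil mean, 2.91.

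Among 10 arrays, the genes whose pattern was most like that of Mmp12 (Pearson r, as a description, over genes well above background in red on every smoke array) were Mki67 (r = 0.992), Havcr2 (0.991), Ctss (0.990), Stra6l (0.989) and Il18 (0.989). On deviations from the group means, Commd1 (r = 0.959), Igkv4-86 (0.925), Zfp654 (0.921), Pimreg (0.912) and Wdfy4 (0.907) were the most like it, of which Pimreg and Wdfy4 were also called between the groups. Both rankings took the highest r among 14502 genes, kept by their signal in the group where Mmp12 was high. Over 10 arrays a clear group difference alone gives a high r. Whether any of these r exceeds chance was not tested, so they do not show shared regulation.

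**Figure D5:**
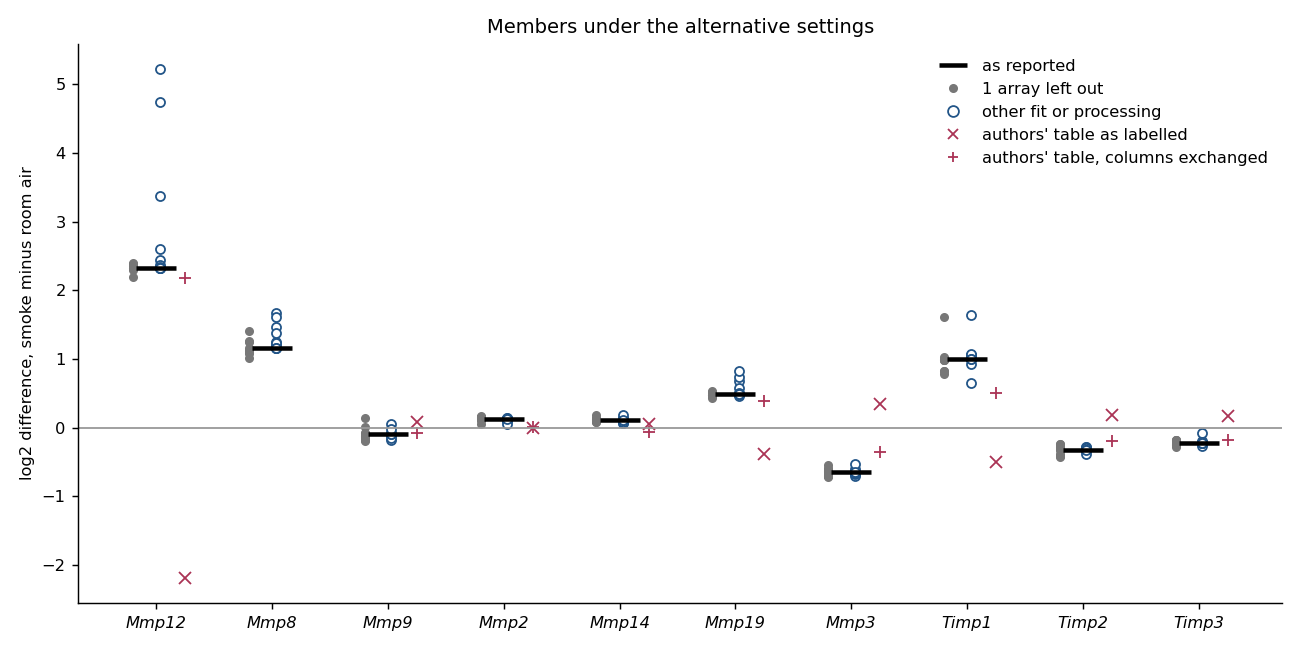
Log2 difference of smoke minus room air (y axis) of the 10 members as reported (bar) and under other processing, fits and left-out arrays (points), with the authors' table as labelled (cross) and with its columns exchanged (plus). Mmp12 runs from 2.20 to 5.22 outside the authors' table, and the table as labelled puts it at -2.18.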

How the data were processed

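The authors deposited, per the file headers, scanner output of Feature Extraction 9.5.3.1 with the intensity of each spot and its background and a log10 ratio of red over green; the labels name 1 dye, Cy3, which is green, and another version. The authors also deposited a log2 table. All 286449 of its values equal, within 1e-04, the mean log2 signal of both channels of the same-numbered array in the other group.

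Spots were corrected with normexp (offset 50) and loess within arrays, outlier spots (83 to 144 per array) set missing, and the spots of a probe averaged. Groups were compared, 2-sided, with limma 3.58.1 in R 4.3.3, Benjamini-Hochberg adjusted over 41173 probes. Each gene was taken from the probe with the highest mean red signal. From other lists, genes past the threshold were named where the difference exceeded 1 in size or the list held at most 16 genes.

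The file headers give the slide, which is the replicate number. Every slide held the smoke array at position 1 and the room air array at position 2, so that group and position cannot be told apart. Same-numbered arrays of replicates 2 to 5 deviated from their group means together across probes (r of 0.415 to 0.55, against at most 0.205 for others). For replicate 1 r was 0.157, below that highest value of the others, so a pairing was not clear there. The numbers pair arrays by slide, and the labels name no pairing of the mice. The members and lists were chosen with earlier results of these data known.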

Additional observations from a re-analysis of the deposited data

Results flagged for a closer look

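In 16 of 114 groups of 5 lungs checked, the highest or lowest lung stood far from the nearest other, where chance gives about 1 in 20 for independent checks, and 11 of the 16 were room air replicate 1. The checks were not independent, since probes of the same gene were counted separately and some genes again within list means. The 16 are therefore not separate events. Its Mmp8 ratio was 2.31, against 0.99 to 1.14 in the other room air lungs. For Mmp9 it was 0.20 against -1.14 to -0.88 with the brighter probe and -0.85 against -1.75 to -1.49 with the other. Mmp19 was -0.29 there, against -0.48 to -0.44. The Timp1 probes read -0.58, -0.71 and -0.83, with the other room air lungs at most at -3.07, -2.13 and -2.59. Adam8 was -0.79 against -1.91 to -1.67, and Lcn2 was 4.03 against 0.51 to 0.92. The mean of the AP-1 and inducer genes was 0.73, against -0.13 to -0.0021, and that of the neutrophil markers 2.91, against 1.45 to 1.76.

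In the smoke group, Reck was high in replicate 1 (2.07 against 1.89 to 1.92), Mrc1 in replicate 3 (5.15 against 4.28 to 4.43) and Pdgfra in replicate 5 (0.84 against 0.71 to 0.74). Replicate 4 was low in Marco (4.97 against 5.92 to 6.13) and Fcgr4 (0.72 against 1.08 to 1.13). No cause of these values was tested.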

How the results depend on the processing

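Over 24 alternatives, Mmp12 and Mmp19 passed in 21 each and Mmp3 in 19, and Mmp8 passed in 15 of 21; Timp1, Timp2 and Timp3 passed in 2 each and Mmp9, Mmp2 and Mmp14 in 0. The highest adjusted p was 0.240 for Mmp8 and 1.00 for the others. Where no cause is given, the cause was not tested.

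With the exact Wilcoxon test, whose smallest p at this number of mice is 0.00794, 0 probes passed after adjustment (5446 at an unadjusted p under 0.05), so 0 members were higher and 0 lower, with unaltered differences of 2.33 for Mmp12, 1.16 for Mmp8, 0.49 for Mmp19 and -0.65 for Mmp3. With the replicate block 5019 probes passed and 3 members were lower, Timp2 (-0.32) and Timp3 (-0.22) being added. Mmp8 did not pass with the scanner's own ratio (1.67). In red alone 0 members were lower, with Mmp3 at -0.60 after quantile normalization and -0.65 after scaling to the 75th percentile, where 1759 probes passed.

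In the authors' table as labelled, which averages both channels, 16 probes passed and 0 of 9 members were higher or lower. There Mmp12 was -2.18, Mmp9 0.0827, Mmp2 -0.0042, Mmp19 -0.38, Mmp3 0.35, Timp1 -0.50, Timp2 0.19 and Timp3 0.17, with signs opposite to the scanner files, and Mmp14 was 0.0598, with the same sign. With its columns exchanged, chosen after seeing the data, 16 probes passed, 0 members were higher and 0 lower, and Mmp12 was 2.18, Mmp14 -0.0598, Mmp19 0.38 and Mmp3 -0.35. Without slide 1 and with the block, also chosen after seeing the data, 6088 probes passed, 4 members were higher and 3 lower, and Mmp9 was 0.0529, Timp1 1.64, Timp2 -0.38 and Timp3 -0.20.

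Without each array in turn, 2102 to 3660 probes passed, 2 to 4 members were higher and 1 lower. Mmp8 ran from 1.01 to 1.41, Mmp9 from -0.19 to 0.15, with the sign turned without room air replicate 1 or smoke replicate 3, and Timp1 from 0.78 to 1.60, past the threshold without room air replicate 1. Red was well above background for 64.9 to 77.5% of spots, and with 5 arrays in a group small differences can be missed.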
